A study of Mus musculus with 9 samples.

Results

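The sestrins, REDD1, the TSC complex and Rheb form the set of regulators that sits upstream of the kinase complex mTORC1. Their transcripts were followed in mouse macrophages, grown from bone marrow and loaded with homogenised spinal cord, under vehicle or 1 of 2 mTOR inhibitors. The 8 genes were taken by name from the count table: Sesn1, Sesn2, Sesn3, Ddit4 (which encodes REDD1), Tsc1, Tsc2, Tbc1d7 and Rheb. They are 8 of 53342 genes in the table, and all 8 were among the 12511 genes with enough counts to be tested. The marrow came from wild-type male and female C57BL/6J mice aged 8 to 12 weeks, with bones of different animals kept apart as biological replicates. Cultures received vehicle, rapamycin or Torin-2 for 2 h, and spinal cord homogenate was then added at 1% weight per volume, which is 10 mg per mL, for 24 h. Each of the 3 groups had 3 replicates and every group received homogenate, so that changes are relative to homogenate-fed vehicle cells and no culture without homogenate was analysed here. The homogenate came from pooled cords of C57BL/6 mice aged 8 to 20 weeks with the meninges removed. The labels name no dose for either inhibitor, so the 2 cannot be compared at matched doses. Rapamycin binds FKBP12 and inhibits mTORC1 allosterically, whereas Torin-2 competes with ATP at the kinase site of mTOR and so inhibits both of its complexes. Per the series' design text, rapamycin served to account for the mTORC1 part of the action of Torin-2.

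Rheb is a small GTPase on the lysosomal surface that switches mTORC1 on when bound to GTP. The TSC complex, made of hamartin (Tsc1), tuberin (Tsc2) and TBC1D7, makes Rheb hydrolyse its GTP and so brakes the pathway, with tuberin as the catalytic subunit. REDD1 is a short-lived stress protein that restrains mTORC1 through the TSC complex. Sestrins bind GATOR2, a positive regulator of the amino acid branch, and Sestrin2 is known as a leucine sensor. Genes of the sestrin family and Ddit4 are known targets of stress-responsive transcription factors, among them p53, FOXO proteins, ATF4, HIF-1 and the glucocorticoid receptor. RNA counts measure neither the proteins nor the activity of mTORC1.

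Promoter sequences of RefSeq on GRCm38.p6 were available for all 8 genes, in windows from 250 bases before to 50 bases after each start. Stretches from 200 bases before to 30 after the start are shown for 3 genes whose transcripts fell with both inhibitors and for Rheb, since these 4 hold a letter match to a motif searched. Capitals mark ACGTG, a form of the core of the hypoxia response element, on either strand. In Sesn1 they mark TGTTTAC, the reverse complement of the forkhead motif GTAAACA. The form GCGTG was not searched, so it is unmarked and uncounted where it occurs. The windows are chr10:41810374-41810603 on the plus strand for the upstream of 2 Sesn1 promoters, chr10:59951741-59951970 on the minus strand for Ddit4, chr13:43171472-43171701 on the minus strand for Tbc1d7 and chr5:24842332-24842561 on the minus strand for Rheb.
Sesn1: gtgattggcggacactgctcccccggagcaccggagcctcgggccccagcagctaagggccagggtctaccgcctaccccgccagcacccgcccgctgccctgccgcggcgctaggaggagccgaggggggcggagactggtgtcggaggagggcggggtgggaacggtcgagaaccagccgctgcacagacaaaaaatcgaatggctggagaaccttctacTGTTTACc
Ddit4: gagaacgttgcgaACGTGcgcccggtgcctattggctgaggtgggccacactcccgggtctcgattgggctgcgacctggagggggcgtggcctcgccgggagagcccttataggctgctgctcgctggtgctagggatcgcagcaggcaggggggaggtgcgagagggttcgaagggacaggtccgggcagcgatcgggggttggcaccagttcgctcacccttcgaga
Tbc1d7: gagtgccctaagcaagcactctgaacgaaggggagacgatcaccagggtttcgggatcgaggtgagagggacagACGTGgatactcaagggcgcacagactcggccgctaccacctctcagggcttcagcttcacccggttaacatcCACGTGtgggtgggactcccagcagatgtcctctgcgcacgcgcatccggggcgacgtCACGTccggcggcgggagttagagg
Rheb: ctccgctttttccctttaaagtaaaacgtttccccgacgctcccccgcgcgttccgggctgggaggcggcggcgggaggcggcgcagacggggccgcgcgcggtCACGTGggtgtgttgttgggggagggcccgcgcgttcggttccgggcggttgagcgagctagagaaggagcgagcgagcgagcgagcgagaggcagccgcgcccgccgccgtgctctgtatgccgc
Positions are counted from the start site. In Ddit4 the single ACGTG ran from -187 to -183. Tbc1d7 held matches starting at -126 and at 6, and a palindromic CACGTG from -53 to -48 that matches on both strands. Rheb held the same palindrome from -96 to -91. Across all 32817 promoter windows, 19.6% contained ACGTG on either strand. By gene, 21.8% of 26994 genes had a window with it, and 3 of the 8 genes did. The forkhead motif lay from 23 to 29 in Sesn1, and 3.65% of windows contained it. The amino acid response element TGATGNAAT was found in 0.966% of windows, the ATF4 motif TTTCATCA in 1.02%, the CLEAR motif TCACGTGA, which contains ACGTG, in 0.975% and the antioxidant response motif TGACTCAGC in 0.454%, and none of these 4 was found in the windows of the 8 genes. These are letter matches in short windows and not binding sites.

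The 9 libraries held 16116666 to 24044329 counts. All 8 macrophage markers were tested, and their summed level was 12000 to 16600 CPM (counts scaled to a common library size with TMM factors) in vehicle, 19500 to 21100 in rapamycin and 15000 to 16800 in Torin-2. Oligodendrocyte markers, from the myelin-forming cells of the spinal cord, summed to 479 to 611 CPM in vehicle, 690 to 845 in rapamycin and 365 to 422 in Torin-2, with none of the 6 at 0 in every library. The corresponding sums were 7.75 to 11.6, 9.82 to 13.2 and 5.34 to 7.01 CPM for 6 neuron markers and 18.1 to 25.0, 21.2 to 34.9 and 14.7 to 16.8 CPM for 5 astrocyte markers, again with none at 0 throughout. The 5 fibroblast markers, none at 0 throughout, summed to 8.95 to 37.8, 12.3 to 78.1 and 2.38 to 6.95 CPM, and in each group replicate 3 was the lowest. Lymphocyte markers reached at most 0.16 CPM and neutrophil markers 1.40 to 4.89 CPM, with 3 of 5 of each list at 0 in all libraries. These sums moved with the groups and lean on their most abundant members, such as Lyz2 (mean 12100 CPM) and Mbp (453 CPM). Members of a list did not always move together. With rapamycin, 5 macrophage markers were called higher and 2 lower, and 3 oligodendrocyte markers higher and 1 lower (edgeR adjusted p under 0.05). With Torin-2, 3 macrophage markers were called higher and 2 lower. Oligodendrocyte markers then gave 0 higher and 4 lower calls, and fibroblast markers 0 and 3. Neuron, astrocyte and neutrophil markers gave 0 higher and 1 lower each. Of all tested genes, Torin-2 had 32.5% called higher and 32.9% lower. The part of the markers in the results below was not tested. In bulk cultures, fewer cells of a type and less RNA per cell cannot be told apart.

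Torin-2 lowered 5 of the 8 transcripts and raised 2 relative to vehicle. The 3 sestrins, Ddit4 and Tbc1d7 fell, Tsc1 and Tsc2 rose, and Rheb did not pass the test. In the same comparison 32.9% of all tested genes were called lower and 32.5% higher (edgeR quasi-likelihood test, Benjamini-Hochberg adjusted p under 0.05), so calls were frequent throughout the transcriptome. Vehicle and Torin-2 libraries did not overlap for 7 of the 8 genes, against 70.2% of tested genes. The median log2 fold change was -0.93 over the 8 genes and -0.01 over all tested genes. Rapamycin lowered 4 of the 8, namely Sesn1, Sesn3, Ddit4 and Tbc1d7, and Rheb was called higher, in a comparison where 26.2% of tested genes were called lower and 24.6% higher. Its groups did not overlap for 4 of the 8 genes, against 57.5% of tested genes, and the median was -0.40 against 0.00 over all tested genes. Of the calls with rapamycin, 48.5% were higher, and 37.4% with plain library totals as the scale. The comparisons share the vehicle libraries, so their values are given side by side and not as independent evidence.

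**Figure D1:**
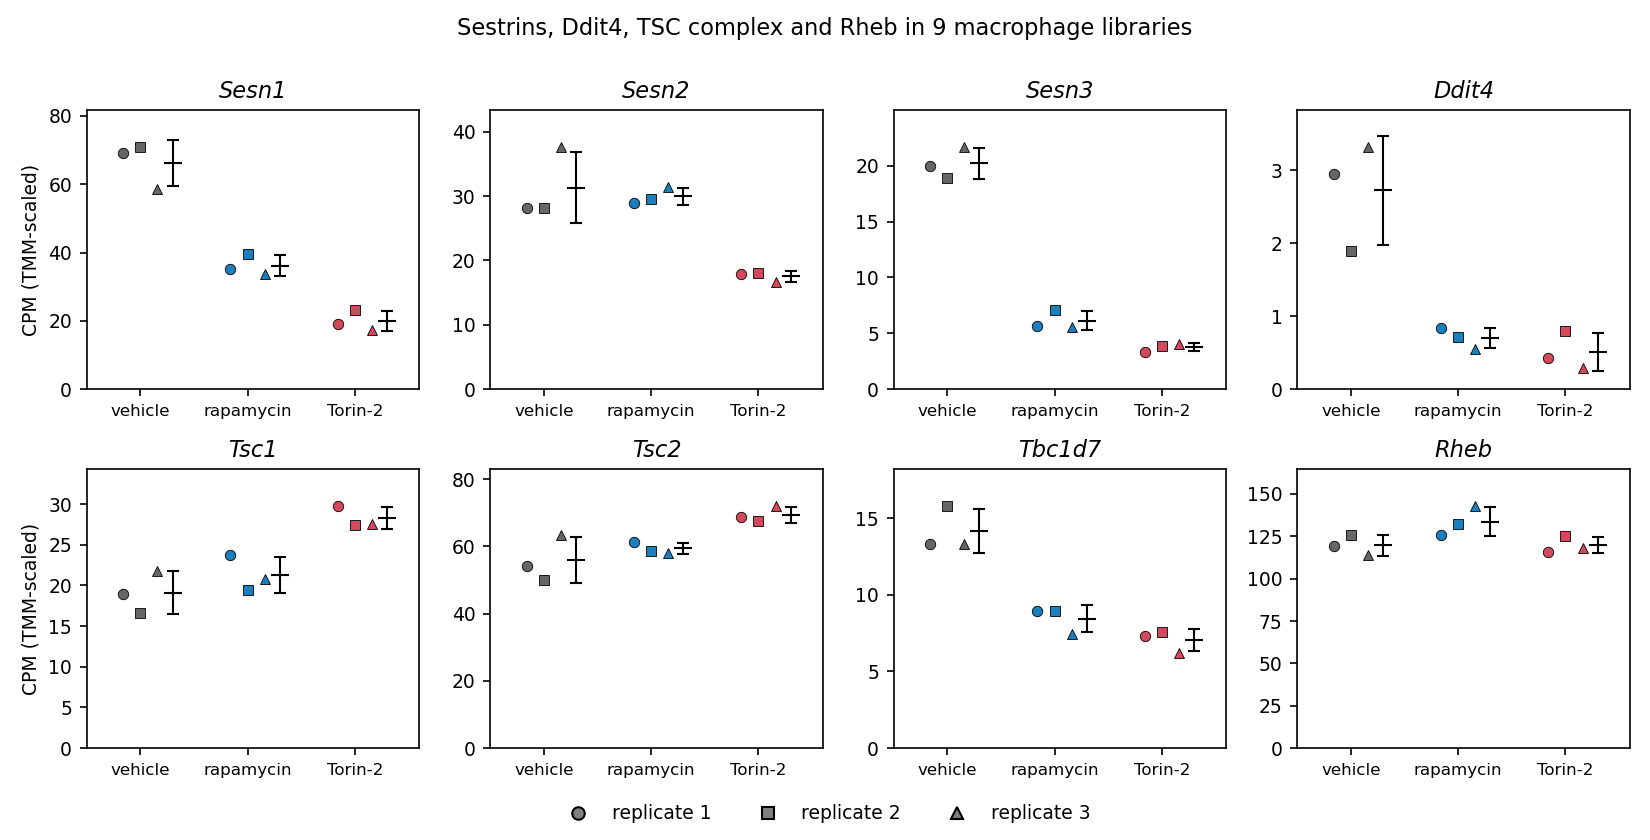
Level of each of the 8 transcripts in every library (y axis, CPM scaled by library size and TMM factor, starting at 0) for vehicle, rapamycin and Torin-2 (x axis). Symbols give the replicate number, and the horizontal bar and whiskers the mean ± SD of 3 replicates. Sesn1 steps down from 58.6 to 71.0 CPM in vehicle to 17.4 to 23.1 in Torin-2, and Tsc1 lies at 27.4 to 29.8 CPM in Torin-2, above its vehicle libraries.

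Sesn1, the first sestrin described as a p53 target, showed a graded decrease across the groups. The gene (ENSMUSG00000038332) lies on chromosome 10 from 41809935 to 41908424 on GRCm38. Its level was 69.2, 71.0 and 58.6 CPM in vehicle replicates 1, 2 and 3, 35.1, 39.5 and 33.7 CPM with rapamycin and 19.1, 23.1 and 17.4 CPM with Torin-2. No libraries overlapped between any pair of groups. The log2 fold change was -1.74 ± 0.11 (SE, n = 3 per group, edgeR adjusted p = 6.91e-08) for Torin-2 against vehicle, and 3.72% of tested genes fell further. For rapamycin against vehicle it was -0.88 ± 0.11 (edgeR adjusted p = 4.22e-05). The mean fell by 45.5% with rapamycin and fell by 70.1% with Torin-2.

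Sesn2, the leucine-binding sestrin, fell with Torin-2 but showed no detectable change with rapamycin. This gene (ENSMUSG00000028893) lies on chromosome 4 from 132492032 to 132510501. Vehicle replicates 1, 2 and 3 stood at 28.1, 28.2 and 37.7 CPM, rapamycin replicates at 29.0, 29.5 and 31.5 CPM and Torin-2 replicates at 17.9, 18.1 and 16.6 CPM. All Torin-2 libraries were below all others, whereas the rapamycin libraries lay inside the vehicle range. The log2 fold change was -0.84 ± 0.11 with Torin-2 (edgeR adjusted p = 3.23e-05) and -0.06 with rapamycin, with a 95% interval from -0.30 to 0.17 (edgeR adjusted p = 0.664). Vehicle replicate 3 was the high library, and without it the rapamycin value was 0.09.

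Sesn3, a sestrin known as a FOXO target, had the lowest counts of the family and the largest proportional decrease. It (ENSMUSG00000032009) lies on chromosome 9 from 14275067 to 14333101. Levels were 20.0, 18.9 and 21.7 CPM in vehicle, 5.66, 7.10 and 5.56 CPM with rapamycin and 3.32, 3.88 and 4.03 CPM with Torin-2. The 3 groups were separate, with vehicle far above both inhibitors. Torin-2 changed it by -2.43 ± 0.13 on the log2 scale (edgeR adjusted p = 1.7e-08) and rapamycin by -1.72 ± 0.12 (edgeR adjusted p = 9.09e-07). Only 1.48% and 1.82% of tested genes had a lower fold change in the respective comparisons.

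The make-up of the sestrin transcripts differed between groups, as did their sum. Levels of different genes were compared per kilobase of exon union, the merged exons of all annotated transcripts. The sum of the 3 sestrins on that scale was 27.0 ± 0.212 CPM per kb in vehicle (SD, n = 3), 18.1 ± 0.692 with rapamycin and 10.3 ± 0.93 with Torin-2. Sesn1 made up 61.7 ± 6.18% of it in vehicle, 50.1 ± 2.63% with rapamycin and 48.4 ± 2.72% with Torin-2. The Sesn2 share was 33.4 ± 5.86%, 47.7 ± 2.84% and 49.2 ± 2.57%, and vehicle did not overlap either inhibitor for any of the 3 shares. Sesn3 contributed 4.90 ± 0.355%, 2.21 ± 0.229% and 2.40 ± 0.356%. In each of the 3 shares the libraries of the 2 inhibitors overlapped. These shares were not tested, and their absolute size depends on the lengths used.

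Ddit4 fell with both inhibitors from a level that was already low. REDD1 is its product, and the gene (ENSMUSG00000020108) lies on chromosome 10 from 59949669 to 59951834. Vehicle libraries held 69, 39 and 69 counts, rapamycin libraries 13, 15 and 11 and Torin-2 libraries 8, 15 and 7, the fewest of the 8 genes. These are 2.95, 1.89 and 3.32 CPM in vehicle, 0.837, 0.710 and 0.551 CPM with rapamycin and 0.428, 0.797 and 0.288 CPM with Torin-2. Every inhibitor-treated library was below every vehicle library, and the inhibitor groups overlapped each other. The log2 fold change was -2.45 ± 0.38 with Torin-2, with a 95% interval from -3.28 to -1.62 (edgeR adjusted p = 0.000118), and -1.97 ± 0.37 with rapamycin (edgeR adjusted p = 0.000885). Only 1.41% and 1.28% of tested genes had a lower value, but the intervals are the widest among the 8. The gene passed the filter on low counts, 0.483 CPM, in all vehicle and rapamycin libraries and in 1 Torin-2 library; the other genes passed it in all 9.

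The TSC complex genes did not move as a unit. Tsc1 and Tsc2 rose with Torin-2, while Tbc1d7, the third subunit, fell with both inhibitors. Tsc1 encodes hamartin, the scaffold that stabilises tuberin, and lies (ENSMUSG00000026812) on chromosome 2 from 28641228 to 28691167. Its level was 19.0, 16.6 and 21.8 CPM in vehicle, 23.7, 19.4 and 20.8 CPM with rapamycin and 29.8, 27.4 and 27.6 CPM with Torin-2. The Torin-2 libraries were above all others, and vehicle and rapamycin overlapped. Torin-2 raised it by 0.56 ± 0.11 on the log2 scale (edgeR adjusted p = 0.000558), and the rapamycin difference was 0.15, with a 95% interval from -0.09 to 0.38 (edgeR adjusted p = 0.28).

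Tsc2 (ENSMUSG00000002496), on chromosome 17 from 24595816 to 24632630, encodes the GTPase-activating subunit tuberin. It stood at 54.1, 50.1 and 63.5 CPM in vehicle, 61.4, 58.7 and 58.1 CPM with rapamycin and 68.7, 67.5 and 72.1 CPM with Torin-2. The Torin-2 libraries again exceeded all others. Torin-2 raised it by 0.31 ± 0.08 on the log2 scale (edgeR adjusted p = 0.00395). With rapamycin the difference was 0.09, with a 95% interval from -0.09 to 0.26 (edgeR adjusted p = 0.384), and it was -0.006 with library totals as the scale. Without vehicle replicate 3, the highest vehicle library, the rapamycin difference passed the test (edgeR adjusted p = 0.0357), as it did without replicate 3 of every group (edgeR adjusted p = 0.0319).

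Tsc2 shares 693 exonic bases with Pkd1, the polycystin-1 gene on the opposite strand, which are 7.20% of the Tsc2 exon union and 3.98% of that of Pkd1. Pkd1 rose from 15.6 ± 0.858 to 67.6 ± 4.18 CPM with Torin-2 (log2 fold change 2.12, edgeR adjusted p = 5.98e-09) and to 23.5 ± 3.39 CPM with rapamycin (0.58, edgeR adjusted p = 0.000546). Whether the counting used strand is not given in the labels, so reads of the shared bases may have been assigned to either gene. If reads were spread evenly along Pkd1, its rise would place 2.07 CPM in the shared bases, and Tsc2 rose by 13.5 CPM. How reads were distributed along Pkd1 was not tested.

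Tbc1d7 (ENSMUSG00000021368), on chromosome 13 from 43151740 to 43171501, encodes the small subunit that binds hamartin and stabilises the complex. Levels were 13.3, 15.8 and 13.3 CPM in vehicle, 8.95, 8.95 and 7.42 CPM with rapamycin and 7.33, 7.55 and 6.21 CPM with Torin-2. All inhibitor-treated libraries were below all vehicle libraries. The log2 fold change was -1.01 ± 0.13 with Torin-2 (edgeR adjusted p = 1.82e-05) and -0.74 ± 0.12 with rapamycin (edgeR adjusted p = 0.000395). In proportion, the mean fell by 50.3% with Torin-2 and fell by 40.3% with rapamycin.

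Within libraries, Tbc1d7 stood lower relative to its partners under both inhibitors. Per kilobase of exon union, the ratio of Tbc1d7 to Tsc2 was 0.611 ± 0.126 in vehicle (SD, n = 3), 0.338 ± 0.0307 with rapamycin and 0.242 ± 0.0325 with Torin-2. It ranged from 0.500 to 0.749 in vehicle, 0.304 to 0.363 with rapamycin and 0.205 to 0.266 with Torin-2, so no groups overlapped. Tbc1d7 to Tsc1 gave the same order of groups, at 2.20 ± 0.511, 1.17 ± 0.162 and 0.727 ± 0.0743. The Tsc1 to Tsc2 ratio varied less, from 0.278 ± 0.00798 in vehicle to 0.291 ± 0.0226 with rapamycin and 0.332 ± 0.0210 with Torin-2. Its 3 Torin-2 values of 0.353, 0.330 and 0.311 lay above the vehicle values of 0.286, 0.270 and 0.279. The rapamycin values of 0.314, 0.268 and 0.290 overlapped both other groups. A different gene length multiplies such a ratio by the same factor in all libraries, so the steps between groups do not depend on it. The ratios were not tested.

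**Figure D2:**
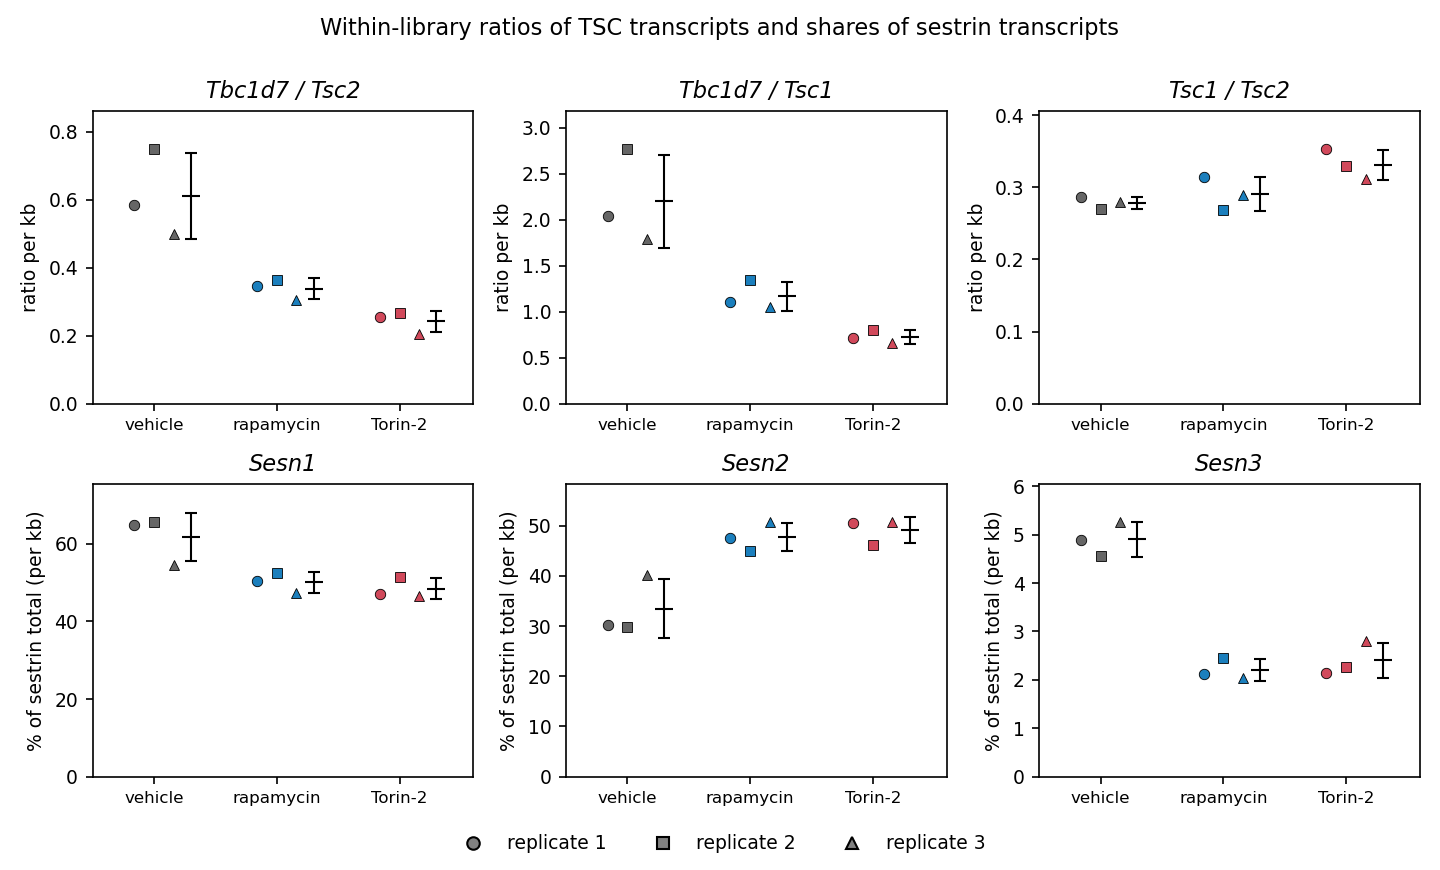
Upper panels, ratio of 2 TSC complex transcripts within each library (y axis, ratio of CPM per kb of exon union). Lower panels, share of each sestrin in the sum of the 3 (y axis, percent of summed CPM per kb). The x axis gives the group, symbols the replicate number, and bars the mean ± SD of 3. Tbc1d7 to Tsc2 steps from 0.611 in vehicle to 0.338 and 0.242, and the Sesn2 share is 33.4% in vehicle, 47.7% with rapamycin and 49.2% with Torin-2.

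Rheb, the activator that the TSC complex restrains, differed by at most 0.16 on the log2 scale in the 3 comparisons. It (ENSMUSG00000028945) lies on chromosome 5 from 24802823 to 24842624. Its level was 119, 126 and 114 CPM in vehicle, 126, 132 and 143 CPM with rapamycin and 116, 125 and 118 CPM with Torin-2. Vehicle and Torin-2 libraries covered the same range. The Torin-2 difference from vehicle was 0.003 on the log2 scale, with a 95% interval from -0.13 to 0.14 (edgeR adjusted p = 0.969), and its sign changed with the scaling. Rapamycin gave 0.16 ± 0.06 (edgeR adjusted p = 0.0492), with overlapping libraries. That call was lost with library totals as the scale (edgeR adjusted p = 0.447), without the filter on low counts (0.0846), and when any of vehicle replicates 1 and 3, rapamycin replicates 2 and 3 or any Torin-2 replicate was left out (edgeR adjusted p = 0.0586 to 0.162), or replicate 3 of every group (0.364). The macrophage and oligodendrocyte marker sums were also highest in the rapamycin group. Adgre1, Fcgr1 and Cnp of these lists were called lower there than in vehicle. The part of these markers in the Rheb difference was not tested.

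Torin-2 against rapamycin separated the 8 genes into those on which the inhibitors differed and those on which no difference was detected. In this comparison 24.1% of tested genes were called lower and 24.2% higher, and 57.2% did not overlap; of the 8 genes, 3 were lower, 2 higher and 6 not overlapping, with a median log2 fold change of -0.38 against -0.001 over all tested genes. The sestrins made up the lower calls. Sesn1 was lower by -0.87 ± 0.11 on the log2 scale (edgeR adjusted p = 6.13e-05), Sesn2 by -0.78 ± 0.11 (edgeR adjusted p = 0.000134) and Sesn3 by -0.71 ± 0.14 (edgeR adjusted p = 0.00122). Tsc1 was higher with Torin-2 by 0.42 ± 0.11 (edgeR adjusted p = 0.00694) and Tsc2 by 0.23 ± 0.08 (edgeR adjusted p = 0.0333). The Tsc2 call was lost when rapamycin replicate 2 or 3, any Torin-2 replicate, or replicate 3 of every group was left out (edgeR adjusted p = 0.0505 to 0.11). Ddit4 differed by -0.49, with a 95% interval from -1.43 to 0.46 (edgeR adjusted p = 0.378), and Tbc1d7 by -0.27, with an interval from -0.55 to 0.02 (edgeR adjusted p = 0.11). Neither interval excludes a difference of the size seen for Tsc2. Rheb differed by -0.16, with an interval from -0.30 to -0.02 and no overlap between libraries (edgeR adjusted p = 0.0555), and it passed with the replicate number as a block (edgeR adjusted p = 0.0317).

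**Figure D3:**
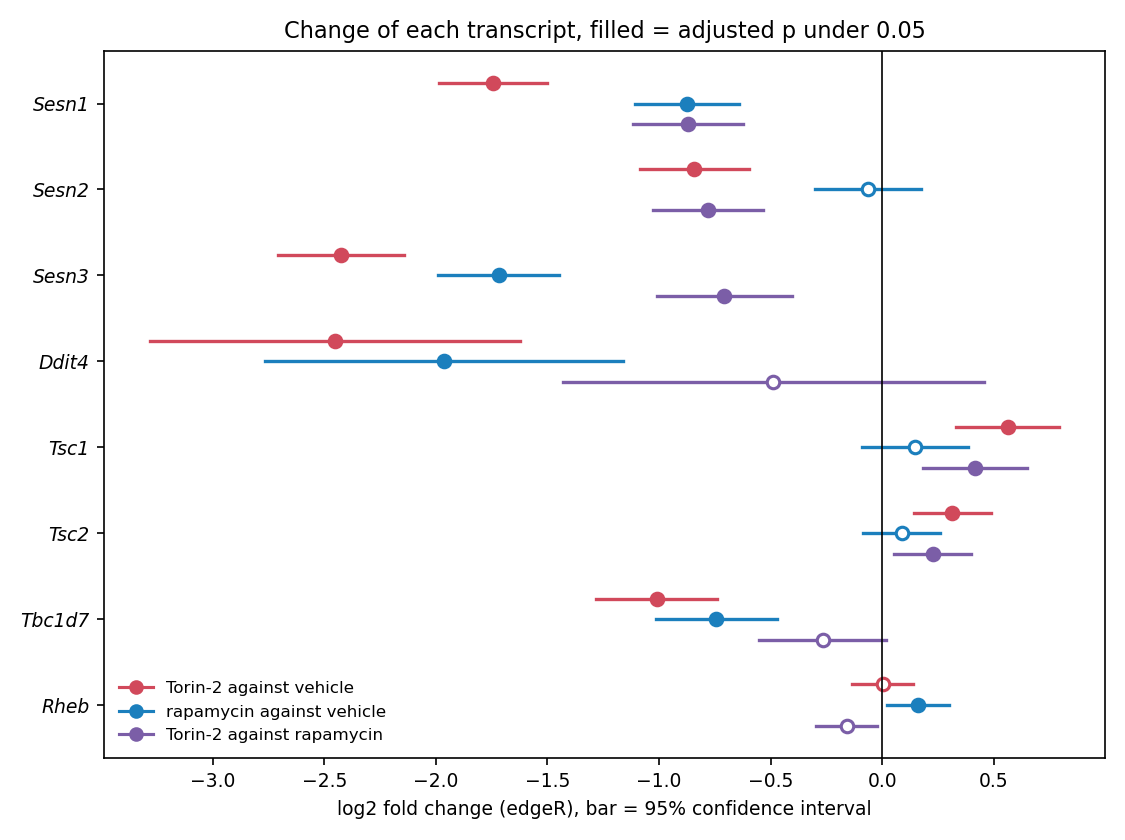
Log2 fold change of each transcript (x axis) in the 3 comparisons, with 95% confidence intervals as bars; filled points passed an edgeR adjusted p of 0.05. Red is Torin-2 against vehicle, blue rapamycin against vehicle and purple Torin-2 against rapamycin. The Ddit4 bars are the widest, and the Sesn2 rapamycin point lies at -0.06 with a bar that crosses 0.

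Ordered by level per kilobase of exon union, the vehicle cells ran from Sesn1 at 16.6 ± 1.68 CPM per kb and Rheb at 15.5 ± 0.788, through Sesn2 at 9.02, Tsc2 at 5.81 and Tbc1d7 at 3.50, to Tsc1 at 1.62, Ddit4 at 1.55 and Sesn3 at 1.32. Libraries of neighbours overlapped for Sesn1 and Rheb, for Tsc1 and Ddit4, and for Ddit4 and Sesn3. With rapamycin, Rheb led at 17.3 CPM per kb, followed by Sesn1 at 9.07 and Sesn2 at 8.63, which overlapped, and Ddit4 and Sesn3 were the lowest, at 0.399 and 0.400, and overlapped. With Torin-2, Rheb stood at 15.5 CPM per kb and Tsc2 at 7.22, above Sesn2 at 5.04 and Sesn1 at 4.98, which overlapped. Tsc2 had thus passed both sestrins. Tsc1 stood at 2.39 and Tbc1d7 at 1.74 in the Torin-2 cells, an order opposite to that in vehicle. Ddit4 at 0.287 and Sesn3 at 0.245 overlapped.

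The order depends on the length chosen, because several of these genes have long alternative exons. With the longest coding transcript as the length, vehicle levels were 66.9 CPM per kb for Rheb, 17.4 for Sesn1, 11.3 for Tbc1d7, 9.02 for Sesn2, 8.92 for Tsc2, 2.49 for Tsc1, 2.21 for Sesn3 and 1.55 for Ddit4. On that scale Rheb was far above Sesn1 and Tbc1d7 stood above Sesn2 and Tsc2. With Torin-2, Tbc1d7 at 5.64 was still above Tsc1 at 3.67 on this scale, and Tsc2 at 11.1 was above Tbc1d7. The comparison between groups within a gene does not involve length.

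The proteins through which sestrins and the TSC complex act or are acted on were described by lists of named genes. All list counts below stand beside the shares over all tested genes. With Torin-2 against vehicle, 32.5% of these were called higher and 32.9% lower, and with rapamycin 24.6% and 26.2%. Torin-2 against rapamycin gave 24.2% and 24.1%. GATOR1, the complex that inactivates the Rag GTPases, had 0 of 3 members called in any comparison by edgeR, 0 at an unadjusted p under 0.05 and 0 by DESeq2. Of the 5 members of GATOR2, the complex that sestrins bind, Torin-2 raised 2 and lowered 2, and rapamycin raised 1 and lowered 1. Sec13, which also serves in COPII vesicle coats and nuclear pores, fell from 211 ± 4.30 CPM in vehicle to 120 with rapamycin and 40.5 ± 2.02 with Torin-2 (log2 fold change -0.81, edgeR adjusted p = 4.43e-07, and -2.38, edgeR adjusted p = 1.38e-10). Seh1l, which Sec13 also joins in the nuclear pore, moved the other way, by 0.23 (edgeR adjusted p = 0.0204) and 0.60 (edgeR adjusted p = 1.29e-05). The median of the GATOR2 list with Torin-2 was 0.10. With rapamycin the GATOR2 calls were 0 higher and 1 lower when vehicle replicate 1, vehicle replicate 3 or rapamycin replicate 3 was left out, and 0 higher and 2 lower with library totals as the scale.

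KICSTOR, the complex that anchors GATOR1 at lysosomes, had 1 of 4 members called with Torin-2 and 0 with rapamycin (0 at an unadjusted p under 0.05 and 0 by DESeq2, and 1 by edgeR without vehicle replicate 3). That member was Itfg2, with a log2 fold change of 1.67 (edgeR adjusted p = 1.25e-06), named after its values were seen because its mean level is below the 5 CPM used for naming. Other amino acid sensors had 1 of 6 called higher and 3 lower with Torin-2, and 0 and 3 with rapamycin. Gatsl2, now called Castor2, a paralogue of the arginine sensor CASTOR1, fell from 37.8 CPM in vehicle to 23.4 with rapamycin and 5.59 with Torin-2 (log2 fold change -0.69, edgeR adjusted p = 0.000206, and -2.76, edgeR adjusted p = 3.59e-09). Sar1b, a COPII GTPase, fell by 0.56 and 1.25 on the log2 scale, and Lars, the leucyl-tRNA synthetase, fell by 0.31 and 0.74, all past the test.

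AMPK, the energy sensor that phosphorylates tuberin, was listed together with the LKB1 complex that activates it. Of the 11 tested members of this joint list, 7 were called higher and 1 lower with Torin-2, with a median of 0.46 on the log2 scale. The 6 AMPK subunits gave 4 higher and 0 lower calls, and the 5 members of the LKB1 complex gave 3 higher and 1 lower. Prkab1, a regulatory beta subunit, rose from 12.3 to 47.7 CPM (log2 fold change 1.95, edgeR adjusted p = 6.58e-10), Prkag1, a gamma subunit, from 20.9 to 50.9 CPM (1.28, edgeR adjusted p = 2.09e-07) and Prkab2 from 5.20 to 12.3 CPM (1.24, edgeR adjusted p = 9.51e-06). With rapamycin 6 of the 11 were called higher and 2 lower, with a median of 0.14: 4 higher and 0 lower among the AMPK subunits, and 2 higher and 2 lower in the LKB1 complex. Prkab1 rose by 0.36 (edgeR adjusted p = 0.00106) and Prkaa1, a catalytic subunit, by 0.36 (edgeR adjusted p = 0.000506). The rapamycin total of 8 calls was 5 with library totals or without the filter on low counts, 4 without vehicle replicate 1 or rapamycin replicate 2, and 5 without vehicle replicate 2, rapamycin replicate 1 or replicate 3 of every group. Against rapamycin, Torin-2 raised 4 AMPK subunits and 2 members of the LKB1 complex and lowered 0.

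Of 11 kinases known to phosphorylate subunits of the TSC complex, Torin-2 raised 4 and lowered 2, and rapamycin raised 5 and lowered 2. Over all tested genes, 65.4% were called in either direction with Torin-2 and 50.8% with rapamycin. Cdk1, the mitotic kinase, fell from 41.7 CPM in vehicle to 15.2 with rapamycin and 14.9 with Torin-2 (log2 fold change -1.45, edgeR adjusted p = 4.91e-05, and -1.48, edgeR adjusted p = 1.58e-05). Rps6ka1, which encodes RSK1, rose with Torin-2 from 52.4 to 106 CPM (1.02, edgeR adjusted p = 3.46e-07) and stood at 51.0 CPM with rapamycin (-0.04, edgeR adjusted p = 0.718). The rapamycin total of 7 calls was 4 without vehicle replicate 2 or without rapamycin replicate 3.

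All 10 tested binding partners and paralogues of the 8 genes were called with Torin-2, 4 higher and 6 lower, against 3 and 3 with rapamycin. The shares called over all tested genes were 65.4% and 50.8%. Txnip, whose product binds and stabilises REDD1, rose from 168 CPM in vehicle to 386 with rapamycin and 564 with Torin-2 (log2 fold change 1.20, edgeR adjusted p = 7.84e-05, and 1.75, edgeR adjusted p = 1.54e-06), opposite in direction to Ddit4. Rnf167, an E3 ligase described as ubiquitinating Sestrin2, rose by 0.91 (edgeR adjusted p = 1.59e-05) and 1.41 (edgeR adjusted p = 1.19e-07). Gapdh, a glycolytic enzyme described as binding Rheb, fell by 0.55 and 0.83 on the log2 scale. Rhebl1, the closest relative of Rheb, went from 0.886 CPM in vehicle to 2.21 with rapamycin and 4.00 with Torin-2 (1.31, edgeR adjusted p = 0.00296, and 2.15, edgeR adjusted p = 3.13e-05); it was named after its values were seen, since its level is below 5 CPM.

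**Figure D4:**
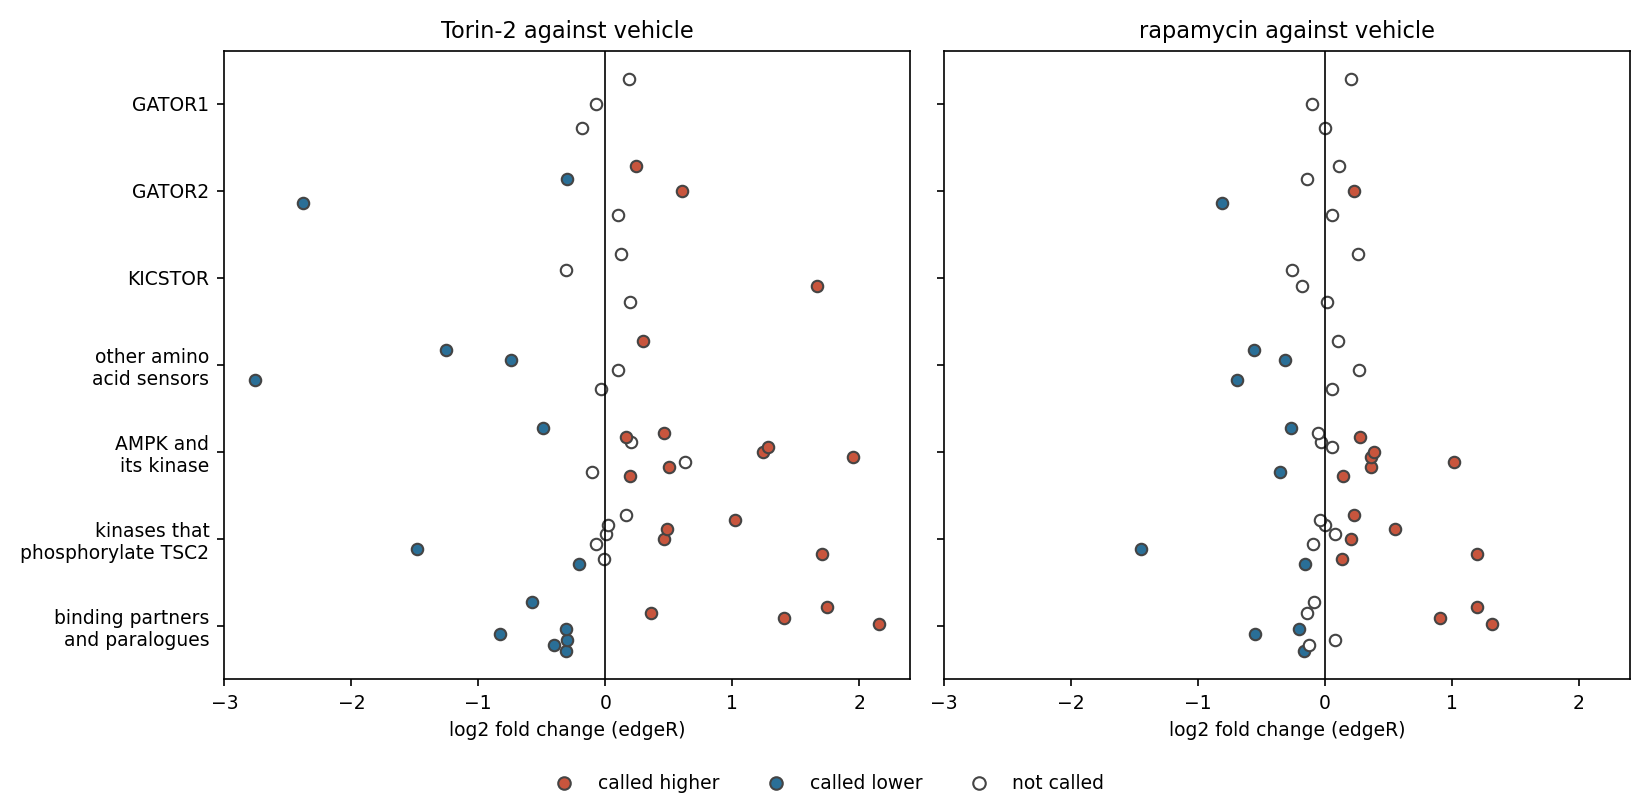
Log2 fold change (x axis) of each tested gene in 7 lists of upstream regulators and partners (rows), for Torin-2 against vehicle on the left and rapamycin against vehicle on the right. Red points were called higher, blue points lower and open points not called (edgeR adjusted p of 0.05); vertical offsets within a row only separate points. GATOR1 has 0 called points in both panels, and Sec13 at -2.38 and Gatsl2 at -2.76 lie farthest to the left in the Torin-2 panel.

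Of 18 transcription factors known to act on the sestrin genes and Ddit4, Torin-2 raised 11 and lowered 3, and rapamycin raised 11 and lowered 2, with medians of 0.53 and 0.32 on the log2 scale. Over all tested genes, 32.5% and 24.6% were called higher, with medians of -0.01 and 0.00. Hif1a, which encodes the oxygen-regulated subunit of HIF-1 and was named after its values were seen, fell from 198 CPM in vehicle to 133 with rapamycin and 109 with Torin-2 (log2 fold change -0.58, edgeR adjusted p = 4.2e-06, and -0.87, edgeR adjusted p = 4.16e-08). Atf4 rose with Torin-2 from 100.0 to 292 CPM (log2 fold change 1.54, edgeR adjusted p = 1.62e-06) and was at 108 CPM with rapamycin (0.11, edgeR adjusted p = 0.54). Ddit3, which encodes the stress factor CHOP, rose by 1.51 with Torin-2 (edgeR adjusted p = 0.00642), and Tfe3, a lysosomal and stress regulator, by 1.10 with Torin-2 (edgeR adjusted p = 1.31e-07) and 0.80 with rapamycin (edgeR adjusted p = 7.09e-06). Myc rose by 1.06 with rapamycin (edgeR adjusted p = 5.73e-05), stood at 0.19 with Torin-2 (edgeR adjusted p = 0.255), and Torin-2 differed from rapamycin by -0.88 (edgeR adjusted p = 0.000223).

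Other known targets of the same factors did not all follow the sestrins. Beside the counts of the target lists, 65.4% of all tested genes were called with Torin-2 and 50.8% with rapamycin. The p53 list had 6 of 18 tested members higher and 9 lower with Torin-2 (median -0.23) and 7 and 10 with rapamycin (median -0.25). Phlda3, an AKT repressor, fell by 2.52 and 1.36 on the log2 scale, whereas Bbc3, which encodes the BH3-only protein PUMA, rose by 2.03 and 1.19. In the ATF4 list 7 of 19 rose and 11 fell with Torin-2 (median -0.86), against 3 and 7 with rapamycin (median 0.06). Its largest changes above 5 CPM were in amino acid synthesis genes, Psat1 at -4.00, Asns at -3.14 and Aldh18a1 at -2.83 on the log2 scale, in the cells in which Atf4 itself rose. The HIF-1 list had 4 of 20 higher and 11 lower with Torin-2 (median -0.81) and 3 and 10 with rapamycin (median -0.46). P4ha2, a prolyl hydroxylase of collagen, fell by 2.69 and 0.67.

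The FOXO list went mostly the opposite way to Sesn1 and Sesn3, and the part of FOXO proteins in those genes was not tested. Torin-2 raised 16 of its 20 tested members and lowered 3 (median 1.28), and rapamycin raised 15 and lowered 1 (median 0.94). Fbxo32, the ubiquitin ligase atrogin-1, rose from 10.5 CPM in vehicle to 213 with rapamycin and 434 with Torin-2 (log2 fold change 4.35, edgeR adjusted p = 5.57e-11, and 5.38, edgeR adjusted p = 6.85e-12). Cited2, a transcriptional co-regulator, rose by 2.70 and 4.05. Klf2, a Krüppel-like transcription factor, rose from 36.4 CPM in vehicle to 66.1 with rapamycin and fell to 8.33 with Torin-2 (0.86, edgeR adjusted p = 7.93e-05, and -2.13, edgeR adjusted p = 4.99e-08). Glucocorticoid receptor targets were mixed, with 5 of 14 higher and 3 lower with Torin-2 (median 0.20) and 7 and 2 with rapamycin (median 0.39). NRF2 targets split evenly with Torin-2, 7 higher and 7 lower of 16 (median -0.09), and 8 rose and 2 fell with rapamycin (median 0.26). Against rapamycin, Torin-2 raised 13 and lowered 4 FOXO targets, raised 4 and lowered 11 HIF-1 targets, raised 6 and lowered 8 ATF4 targets, and raised 3 and lowered 10 NRF2 targets.

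Genes whose levels resembled those of the 8 most closely across the 9 libraries were ranked by Pearson's r of log2 CPM among 8432 others (8433 for Ddit4) with a mean of at least 5 CPM, leaving out sex-linked genes, predicted genes, Riken clones and pseudogenes. The libraries form 3 groups, so r is a description of these libraries and has no test. Sesn1 was most like Nipa2 (r = 0.998), Atp5g3 and Sucla2, and Sesn2 most like Metrnl (r = 0.997), Sec31a and Rgcc. For Sesn3 the closest were Atp6v0d1 (r = 0.995), Rps27l and Pxk. Ddit4 was closest to Ndufs7 (r = 0.991), Mrps36 and Fdxr, and Tbc1d7 to Idh3a (r = 0.997), Cptp and Ddx39. Tsc1 resembled Ppp1r13l (r = 0.980), Nol4l and Sf3b2, and Tsc2 resembled Plxnc1 (r = 0.968), Stat5a and Mapk7. Rheb had Dcp2 (r = 0.980), Ppp1cb and Hps3 as its closest genes. None of the 8 was among the 3 closest genes of another, although Ddit4, below 5 CPM, could not be listed.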

How the data were processed

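Per the labels' protocols, RNA of 9 macrophage cultures was sequenced in pairs of 100 bp reads. The authors deposited raw counts per gene. The submitters' processing notes name STAR 2.5.2a, bcl2fastq and FastQC, and as builds GRCm38.p6 and mm10. How counts were made, with which strand setting and annotation, is not given in the sources used here. Gene positions and lengths are from GENCODE M21 on GRCm38, where 53237 of 53342 identifiers were found.

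The analysis used edgeR 4.0.16 in R 4.3.3. Genes were filtered with filterByExpr, libraries scaled by TMM (factors 0.955 to 1.05), and all 9 fitted in 3 groups without covariates. The 3 contrasts were tested 2-sided by the quasi-likelihood test, with Benjamini-Hochberg adjustment over 12511 genes. The common biological coefficient of variation was 9.96%. The code was tested on simulated data in which a small part of the genes changed, in the Torin-2 group only. That setting does not cover comparisons in which most genes change. Genes with few counts are measured least precisely.

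The 8 genes and all lists were chosen with earlier results of these data known. From each list, up to 3 called genes with the largest change and a mean of at least 5 CPM are named per comparison. One gene that this rule takes is not reported here. Alternatives were DESeq2 1.42.0, library totals, no filter, 2 groups only, a replicate block and left-out replicates; the longest coding transcript as gene length was added after seeing the data. Deviations from group means correlated at 0.168 to 0.5 in the 9 pairs of libraries with the same replicate number. They correlated at -0.358 to 0.162 in the 18 other pairs. The contrast was clearest for replicate 3, at 0.364 to 0.5, and the lowest same-number value, 0.168, was in replicate 2. The reported fit did not use the replicate number, and the replicate block did. Protein sequences were not analysed here.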

Additional observations from a re-analysis of the deposited data

How the results depend on the processing

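The numbers of the 8 genes called stayed within 1.5 times of those reported under all 15 alternatives in each of the 3 comparisons. They were 7 for Torin-2 against vehicle, 4 to 5 for rapamycin against vehicle and 4 to 6 for Torin-2 against rapamycin. The counts over all genes also stayed within 1.5 times. Signs changed only for differences near 0. Rheb with Torin-2 was -0.02 with library totals, -0.003, -0.033 and -0.038 without vehicle replicate 1, vehicle replicate 3 and Torin-2 replicate 2 (-0.038 to 0.039 over the left-out replicates), and -0.021 without replicate 3 of every group. Tsc2 with rapamycin was -0.006 with library totals. Sesn2 with rapamycin was 0.091 without vehicle replicate 3 (-0.137 to 0.091 over the left-out replicates) and 0.053 without replicate 3 of every group. The cause of these changes was not tested.

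Among single genes, the 16 lost calls were those of Rheb with rapamycin and Tsc2 in Torin-2 against rapamycin. The 8 gained calls were those of Tsc2 with rapamycin and Rheb in Torin-2 against rapamycin; for Rheb these came with DESeq2 (adjusted p = 0.0389), 2 groups only (0.0293), the replicate block (0.0317) and without vehicle replicate 2 (0.047), rapamycin replicate 1 (0.0319) or Torin-2 replicate 2 (0.0447). The replicate block changed no other call among the 8 genes. With it, 2 KICSTOR genes in place of 1 were called with Torin-2. Of the list counts, 19 of 630 moved by over 1.5 times, all in lists of at most 18 genes. Levels per kb changed by over 1 SD in 15 of 24 cases with the other length. Depth limits Ddit4 most, with 7 to 69 counts per library.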
